A study of Mus musculus with 6 samples.

Results

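The 10 genes described here encode mouse major histocompatibility complex (MHC) class I heavy chains and their shared light chain. They were given as a list by name, and all 10 were found among the 53801 genes of the count files. The list held 2 classical heavy chains, H2-K1 and H2-D1, 7 nonclassical ones, H2-Q4, H2-Q6, H2-Q7, H2-Q10, H2-T22, H2-T23 and H2-M3, and the light chain gene B2m (beta-2 microglobulin). All 10 were also among the 15143 genes that passed the low-count filter. The members were chosen by their values in the comparison of passages, so their changes are given as a description and no test of them is reported.

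The cells were cardiovascular progenitors induced by chemicals (ciCPCs), obtained from fibroblasts by reprogramming and then expanded as colonies. RNA was sequenced from 3 libraries at passage 3 and 3 libraries at passage 20, so the comparison asks how an early and a late stage of expansion differ. The genotype was wild type in all 6, and the strain was a mix of C57BL/6 and 129J/SvE. Both passages were kept in basal medium with BMP4, Activin A, CHIR99021, an inhibitor of glycogen synthase kinase, and SU5402, an inhibitor of FGF receptor signalling. The labels do not say that replicates were separate cultures, so each p-value speaks only of the scatter among these libraries, and that scatter may be technical. The passages may also differ in culture, harvest day or library preparation, which the labels do not give and which cannot be told apart from passage. In bulk RNA more expressing cells cannot be told apart from more RNA per cell.

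A class I molecule is a heavy chain paired with beta-2 microglobulin, holding a short peptide that was cut by the proteasome, carried into the endoplasmic reticulum by the TAP transporter and loaded with the help of tapasin and other chaperones. Classical molecules are on most nucleated cells and show peptides to CD8+ T cells, while nonclassical ones have narrower tasks, such as signalling to natural killer cells or showing bacterial peptides. Transcription of classical heavy chains and B2m is known to run through upstream elements bound by NF-kB, by interferon regulatory factors, and by the RFX, CREB and NF-Y factors together with the coactivator NLRC5, and interferon-gamma is the best known inducer.

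The 9 heavy chain genes lie on chromosome 17 in the H2 complex and B2m lies on chromosome 2. The upstream sequences of 4 heavy chains and B2m are shown because they place the known class I elements in genes whose levels differed between passages by very different amounts. They are 200 bases ending just before the start site (RefSeq, GRCm38.p6), read 5′ to 3′ on the gene's strand. Capitals mark the interferon element (GAANNGAAA or GAAANNGAA), the NF-kB consensus, the CRE-like core TGACG and the CCAAT box, each searched on both strands. H2-K1 is at chr17:34000348-34000547 (minus strand), H2-Q7 at chr17:35438955-35439154 (plus strand), H2-Q10 at chr17:35469889-35470088 (plus strand), H2-T22 at chr17:36042743-36042942 (minus strand) and B2m at chr2:122147487-122147686 (plus strand).
H2-K1: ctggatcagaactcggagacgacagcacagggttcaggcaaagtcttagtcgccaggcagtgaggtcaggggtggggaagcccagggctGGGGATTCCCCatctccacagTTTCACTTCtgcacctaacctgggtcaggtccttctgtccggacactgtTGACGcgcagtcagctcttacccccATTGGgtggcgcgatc
H2-Q7: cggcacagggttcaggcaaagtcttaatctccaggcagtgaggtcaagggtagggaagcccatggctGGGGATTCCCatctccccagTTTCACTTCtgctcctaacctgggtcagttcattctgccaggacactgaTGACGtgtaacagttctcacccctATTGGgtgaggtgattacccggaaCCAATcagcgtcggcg
H2-Q10: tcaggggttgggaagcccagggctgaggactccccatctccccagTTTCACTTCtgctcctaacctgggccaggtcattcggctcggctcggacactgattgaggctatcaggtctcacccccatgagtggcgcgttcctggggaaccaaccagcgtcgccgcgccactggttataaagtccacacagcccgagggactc
H2-T22: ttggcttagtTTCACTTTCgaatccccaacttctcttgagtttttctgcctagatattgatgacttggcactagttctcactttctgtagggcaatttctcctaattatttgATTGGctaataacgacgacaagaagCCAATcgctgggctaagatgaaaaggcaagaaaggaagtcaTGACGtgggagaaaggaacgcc
B2m: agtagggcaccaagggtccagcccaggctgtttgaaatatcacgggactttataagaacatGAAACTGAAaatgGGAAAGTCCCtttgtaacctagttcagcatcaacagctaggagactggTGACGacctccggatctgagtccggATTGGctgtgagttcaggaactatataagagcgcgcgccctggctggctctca

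In H2-K1 the NF-kB consensus (first base 111 bases before the start) stood just upstream of the interferon element (bases 90 to 82 before the start), followed by TGACG and a reversed CCAAT box, and H2-Q7 had the same order. These positions are from the start of the printed window, and a second RefSeq start of H2-K1 was also searched. From that start the NF-kB match began at 125 bases and the interferon element ran from 104 to 96. A forward CCAAT box was then found 6 to 2 bases before the start. H2-Q10 held the interferon element, but no match to the other motifs. H2-T22 held the interferon element at the far end of the window, 190 to 182 bases before the start, and its NF-kB match lay outside the printed window. B2m held all 4 kinds. Over the 250 bases searched, an interferon element was found in 10 of 10 members and in 12.5% of 32851 promoters. The NF-kB consensus was found in 8 of 10 members, all but H2-Q10 and H2-T23, and in 5% of promoters. TGACG was present in all members but H2-Q6, H2-Q10 and H2-T23 (17.8% of promoters), and CCAAT in all but H2-Q10 (33.8% of promoters). In H2-D1 and H2-T23 the window overlapped a longer GENCODE transcript, so their start sites are uncertain. Motifs found or missing in H2-D1 and H2-T23 hold for the RefSeq start only, and no other start of these genes was searched. In H2-M3 a reversed CCAAT box overlapped the NF-kB match, and overlapping NF-kB matches were counted once per promoter. The motif letters were widened after the sequences had been seen, and a match describes letters only.

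Libraries held 11387738 to 17721788 counts in genes, and the unit of level is CPM, a count scaled to a fixed library size after TMM correction for composition, with mean ± SD and n = 3 per passage. The fit called 5604 of 15143 genes higher and 5641 lower at passage 20 (edgeR's quasi-likelihood test, Benjamini-Hochberg adjusted p under 0.05). With library sizes alone in place of TMM factors these counts were 3528 and 8273, and the all-gene median of the log2 fold changes went from -0.01 to -0.34. Small changes are relative to the scaling. Passage 20 replicate 3 stood apart from the other two, with a chi-square per degree of freedom of 10.6 and 8.72 against them, where they gave 2.04 between themselves. Of 8 cardiac progenitor markers, 4 were higher and 4 lower at passage 20, with a summed level of 763 to 786 CPM at passage 3 and 642 to 710 CPM at passage 20. Isl1 was at 63.2 ± 5.72 CPM at passage 3 and 7.45 ± 0.534 CPM at passage 20, and Nkx2-5 at 1.15 ± 0.211 and 5.24 ± 0.371 CPM. Fibroblast markers summed to 11994 to 12761 CPM at passage 3 and 26538 to 31468 CPM at passage 20, and 5 of 6 were higher, with Thy1 lower. Nearly all of this sum was the collagen genes Col1a1, Col1a2 and Col3a1. Their means were 4353, 3889 and 3675 CPM at passage 3 and 12540, 6098 and 9378 CPM at passage 20. Like most members, the fibroblast sum was highest in passage 20 replicate 1 and lowest in replicate 3 among the late libraries. Pluripotency markers summed to 4.13 to 5.11 CPM at passage 3 and 18.6 to 21.5 CPM at passage 20, with Pou5f1 and Nanog higher, while Zfp42 (18 and 2 counts in all) and Dppa4 (14 and 4 counts) were too low to test. Endothelial markers summed to 13 to 14.3 and 10.0 to 10.2 CPM, but the 3 of 5 that were tested did not move together. Erg was lower (6.40 ± 1.13 and 1.46 ± 0.139 CPM), Pecam1 was higher (3.19 ± 0.624 and 5.36 ± 0.344 CPM) and Tek did not pass. The part of these markers in the results below was not tested.

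All 10 members were higher at passage 20, and in each the 3 passage 20 libraries lay above the 3 passage 3 libraries. In the same fit 37% of all genes tested were called higher and 38.3% had all passage 20 libraries above all passage 3 libraries; the members were chosen on this contrast, so nothing is read from their count. The members' median log2 fold change was 2.56, with a range of 0.58 to 7.27, beside a median of -0.01 over all genes tested. The difference was uneven within the family, from 1.5-fold for H2-T22 to 10.5-fold for H2-K1, 24.9-fold for H2-Q7 and 60.4-fold for H2-Q10. The value for H2-Q10 rests on 8 counts at passage 3. On the authors' deposited log2 values its difference (3.18) was below those of H2-K1 (3.32) and H2-Q7 (4.02), so its place in the order depends on the processing.

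**Figure D1:**
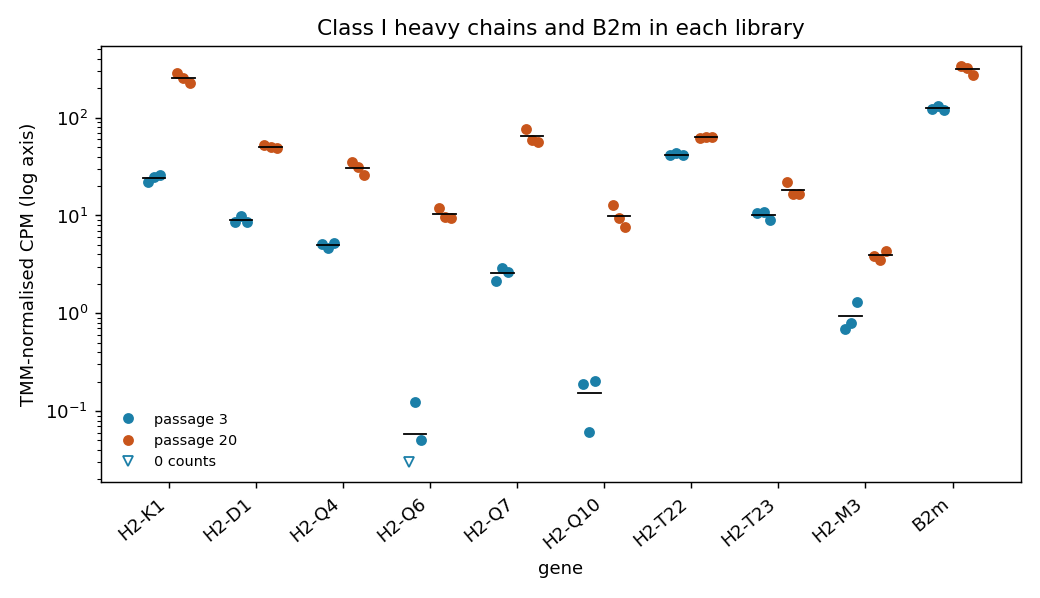
TMM-normalised CPM of the 10 members in each of the 6 libraries, on a log axis, with black bars at the passage means. Passage 20 points lie above passage 3 points for every gene, with the smallest gap in H2-T22 and the largest in H2-Q6, whose passage 3 replicate 1 had 0 counts (open triangle).

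Among the classical chains, H2-K1 (ENSMUSG00000061232, chr17:33996017-34000347) was at 22.2, 24.7 and 25.9 CPM in passage 3 replicates 1 to 3 and at 288, 257 and 225 CPM in passage 20 replicates 1 to 3. Every passage 20 library was far above every passage 3 library, and replicate 1 was the highest and replicate 3 the lowest of the late libraries. This is 10.5-fold, or a log2 fold change of 3.40 (SE 0.10). H2-D1 (ENSMUSG00000073411, chr17:35262730-35267499), the other classical chain, was at 8.49, 9.79 and 8.64 CPM at passage 3 and at 52.4, 49.9 and 48.5 CPM at passage 20. Its groups were well apart and its late libraries close together, a 5.60-fold difference (log2 2.49, SE 0.09).

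The H2-Q genes encode chains of the Qa-2 kind and relatives. H2-Q7, which encodes the membrane-anchored Qa-2 antigen, was at 2.15, 2.89 and 2.63 CPM at passage 3 and 76.8, 59.8 and 56.3 CPM at passage 20. The groups were far apart, 24.9-fold (log2 4.64, SE 0.16), and passage 20 replicate 1 was the highest. H2-Q4 was at 5.07, 4.62 and 5.21 CPM and then at 35.2, 31.3 and 26.1 CPM, 6.18-fold (log2 2.63, SE 0.13), with no overlap of the groups.

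H2-Q10, a chain known to be secreted and made mainly by liver in the adult, had 0.190, 0.0616 and 0.202 CPM at passage 3 and 12.7, 9.45 and 7.65 CPM at passage 20. With 8 counts in all at passage 3 and 316 at passage 20, it was close to undetected early and clearly present late (log2 5.92, SE 0.35). H2-Q6, a close relative of H2-Q7, had 0, 0.123 and 0.0505 CPM at passage 3, which is 3 counts in all, and 12.0, 9.55 and 9.37 CPM at passage 20, which is 331 counts. The ratio of pooled normalised counts was 177, with a 95% counting interval of 60.0 to 862 that covers counting error only, and its fitted log2 value of 7.27 depends on the prior count and was 8.10 without passage 3 replicate 2. On the authors' deposited log2 values the differences were smaller for the low genes, at 3.53 for H2-Q6, 3.18 for H2-Q10, 4.02 for H2-Q7 and 1.26 for H2-M3. H2-K1 was at 3.32 on these values, above H2-Q10.

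The H2-T genes had the smallest differences. H2-T22, whose product is recognised by a subset of gamma-delta T cells, was at 41.1, 43.7 and 41.1 CPM at passage 3 and at 61.4, 63.0 and 64.0 CPM at passage 20, 1.5-fold (log2 0.58, SE 0.06). The groups did not overlap, and the libraries of each passage lay close together. H2-T23, which encodes Qa-1, a ligand of the NKG2A receptor of natural killer cells, was at 10.6, 11 and 8.95 CPM and then at 22, 16.7 and 16.4 CPM, 1.81-fold (log2 0.85, SE 0.14). Passage 20 replicate 1 was the highest by some way, while the other late libraries lay close together. With library sizes alone these log2 values were 0.25 for H2-T22 and 0.52 for H2-T23.

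H2-M3, which presents formylated bacterial peptides, was low throughout, at 0.697, 0.801 and 1.31 CPM at passage 3 and 3.86, 3.48 and 4.36 CPM at passage 20, 4.05-fold (log2 2.02, SE 0.25). B2m (ENSMUSG00000060802, chr2:122147686-122153083) was at 124, 133 and 120 CPM at passage 3 and at 340, 322 and 271 CPM at passage 20. Its groups did not overlap, and its 2.48-fold difference (log2 1.31, SE 0.08) was smaller than that of either classical chain.

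Of the 10 members, 8 were highest in passage 20 replicate 1 and 8 were lowest in passage 20 replicate 3 among the late libraries, the exceptions being H2-T22 and H2-M3. The library that stood apart across all genes was thus also the lowest for most of the family.

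Reads from these genes can be hard to place, because the heavy chains are paralogs on 1 chromosome. Of 50-base stretches of their transcripts, 53.5% in H2-T22, 36.4% in H2-Q4, 35.0% in H2-Q6, 26.5% in H2-Q7 and 19.1% in H2-Q10 also occurred in another gene, against 14.5% in H2-T23, 12.8% in H2-D1, 9.63% in H2-K1, 0.576% in H2-M3 and 0 in B2m. The division of reads among the H2-Q genes, and between H2-T22 and its copies, is therefore uncertain, and the sources used here do not give how strand and reads with several placements were handled. H2-Q4 and H2-T22 also overlap exons of genes on the opposite strand, Gm11131 and A930015D03Rik.

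Per kilobase of exon, the order of the members differed between passages. At passage 3 the levels ran from B2m (146 ± 7.75 CPM per kb) through H2-T22 (12.3 ± 0.445) and H2-K1 (8.27 ± 0.640) to H2-T23 (3.53 ± 0.375), H2-D1 (3.48 ± 0.276) and H2-Q4 (1.91 ± 0.118). H2-T23 and H2-D1 overlapped, as did H2-M3 with H2-Q7 and H2-Q10 with H2-Q6 lower down. At passage 20 the order was B2m (362 ± 41.5 CPM per kb), H2-K1 (87.4 ± 10.7), H2-D1 (19.5 ± 0.757), H2-T22 (18.4 ± 0.385), H2-Q7 (15.1 ± 2.57) and H2-Q4 (11.9 ± 1.77). H2-T22 overlapped H2-Q7 and H2-Q7 overlapped H2-Q4, while H2-K1 was clear of every other heavy chain.

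Shares of the summed level of the 9 listed heavy chains within a library do not depend on how libraries are scaled. The listed genes were chosen on this contrast, and other class I genes are not in the sum. Among those left out, H2-T24 was lower and H2-Q2 higher at passage 20. H2-K1 made up 26.8 ± 1.52% of the RNA of the listed heavy chains per kilobase at passage 3 and 51.8 ± 1.29% at passage 20. H2-D1 had nearly the same share at both, 11.3 ± 0.552% and 11.6 ± 0.735%. The classical pair together went from 38.1 ± 1.32% to 63.4 ± 0.796%, and the H2-Q genes from 8.37 ± 0.393% to 20.2 ± 1.17%. H2-T22 and H2-T23 together went from 51.4 ± 2.17% to 14.8 ± 1.18%, and H2-T22 alone from 39.9 ± 0.884% to 11 ± 1.34%, although both genes were higher in CPM. The libraries of the passages overlapped for H2-D1 and H2-M3 and not for the other shares given. H2-T22 was the leading heavy chain in each early library and H2-K1 in each late one.

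**Figure D2:**
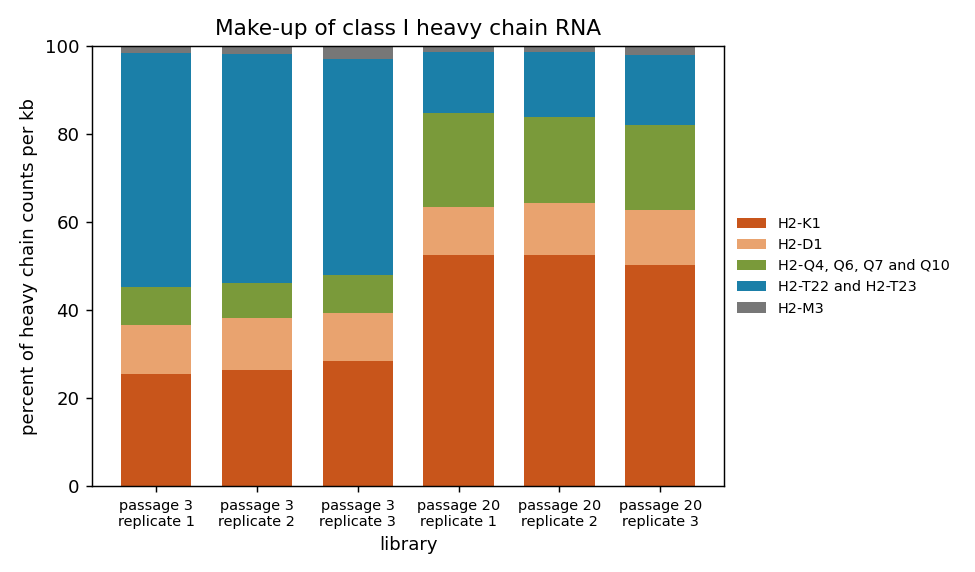
Percent of the summed counts per kilobase of the 9 listed heavy chains in each library. Segments are H2-K1, H2-D1, the 4 H2-Q genes, H2-T22 with H2-T23, and H2-M3. The H2-T segment shrinks from 51.4% to 14.8% on average while H2-K1 grows from 26.8% to 51.8% and H2-D1 keeps its width.

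The balance of heavy and light chain RNA differed as well. The ratio of B2m to the sum of the listed heavy chains, per kilobase, was 4.88, 4.85 and 4.51 in the passage 3 libraries. It was 2.11, 2.25 and 2.07 in the passage 20 libraries. The ratio was 4.74 ± 0.205 early and 2.14 ± 0.0973 late, the summed heavy chains being higher by a larger factor than B2m. Counted without length scaling it was 1.33 early and 0.613 late, so whether B2m or the heavy chains are in excess late depends on that scaling, while the fall does not. Within the classical pair, H2-K1 over H2-D1 went from 2.38 ± 0.222 to 4.48 ± 0.377.

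The genes whose profile over the 6 libraries was nearest to the mean of H2-K1 and H2-D1, by distance between centred log2 CPM values among 11376 candidates, were Aldh1l2, a mitochondrial folate enzyme gene (distance 0.118), Pvr (0.179), Rhbdf2 (0.209), Dhrs7 (0.210) and Maff (0.212). H2-K1 and H2-D1 were 1.16 apart from each other. That is a distance between 2 genes and not to their mean, so it cannot be set against the 5 values above. Each of the 5 had a log2 fold change between 2.86 and 3.08. The search for genes near the mean sets this, since it lies between H2-D1 (2.49) and H2-K1 (3.40). The points share the 2 passages, and no p is given.

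Genes around the members on chromosome 17 were compared to see whether the H2 region was higher as a block. In the span from H2-K2 to H2-M2 (chr17:33974659-37483552), 77 tested protein-coding genes have names that do not start with H2-. Of these, 26 were higher and 27 lower, 33.8% higher, beside 37.5% of all 13452 protein-coding genes tested, and their median log2 fold change was -0.08. Tap1, Tap2, Psmb8 and Psmb9, genes of the class I pathway described below, are among the 26 higher. The span also holds 16 tested protein-coding genes named H2-, of which 9 are members chosen on this contrast, and nothing is read from those. Of the other 7, 4 were higher, 1 was lower and 2 did not pass. Some genes of other names were higher by as much as members, among them Cdsn (log2 5.39, SE 0.21) and Ier3 (3.10, SE 0.08). Hspa1a (4.86, SE 1.22) and Hspa1b (4.16, SE 1.11) were high too, but their values are far less certain. These genes were singled out after their values were seen. Ring1, a Polycomb gene next to H2-K1, was lower (log2 -0.49, adjusted p = 0.000784), and Ddx39b next to H2-D1 was at 252 and 268 CPM and did not pass (adjusted p = 0.159; edgeR's quasi-likelihood test). Pou5f1, the pluripotency gene 36.1 kb from H2-Q10, was low but 6.06-fold higher (2.16 ± 0.539 and 13.2 ± 1.17 CPM).

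**Figure D3:**
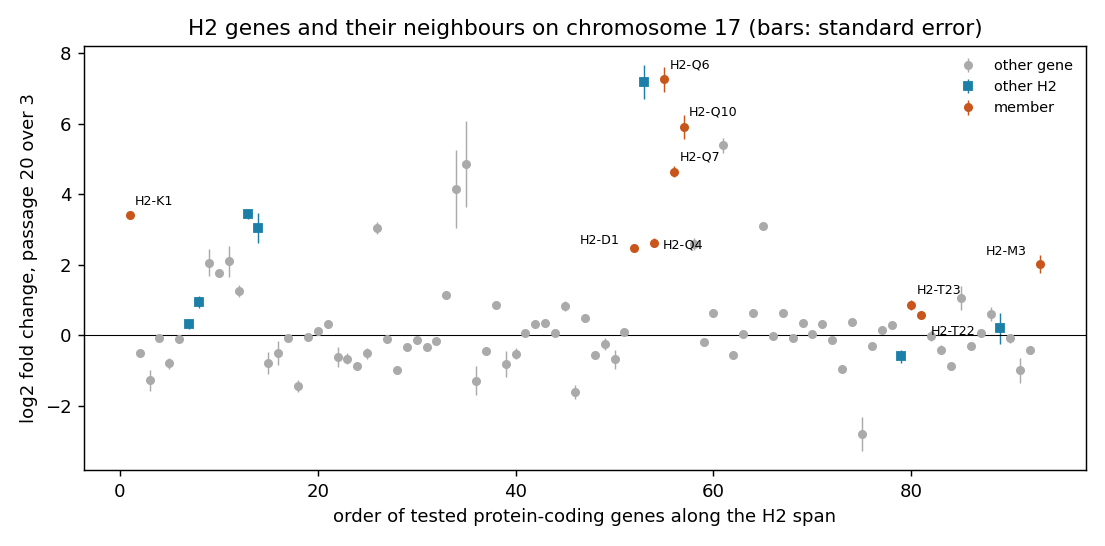
Log2 fold change (passage 20 over passage 3) with standard error for the tested protein-coding genes of the H2 span, in their order along chromosome 17. Members (orange) and other H2 genes (blue) reach 7.27, while the 77 other genes (grey) have a median of -0.08, with a few high ones such as Cdsn at 5.39.

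Other genes of the class I pathway were taken from lists written for this report, and calls rest on the fit over all genes, in which 37% of genes were called higher and 37.3% lower. Counts of list genes near these shares are not a result about the list. Of 8 peptide loading genes, 5 were higher, none lower and 3 did not pass, with a median log2 fold change of 0.43. With library sizes alone 3 were higher and 2 lower. Tap1, a subunit of the peptide transporter, rose from 10.15 ± 0.982 to 34.4 ± 1.46 CPM (log2 1.76, SE 0.09, adjusted p = 2.97e-08), and its partner Tap2 from 1.96 ± 0.206 to 4.70 ± 0.510 CPM (log2 1.25, adjusted p = 8.11e-05). Canx, the chaperone calnexin, rose 1.73-fold and Pdia3, a disulfide isomerase of the loading complex, 1.32-fold. Tapbp, which encodes tapasin, rose 1.37-fold (adjusted p = 0.000101) but did not pass with library sizes alone. Calr, calreticulin, was at 922 ± 13.9 and 965 ± 13.1 CPM and did not pass.

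The immunoproteasome subunits Psmb8 and Psmb9 were low but rose. Psmb8 went from 0.299 ± 0.222 to 1.26 ± 0.234 CPM (log2 2.09, SE 0.44, adjusted p = 0.00129, edgeR's quasi-likelihood test). Psmb9 went from 0.497 ± 0.101 to 2.07 ± 0.979 CPM (log2 2.06, SE 0.39, adjusted p = 0.000584, same test). With 1 library left out the log2 values were 1.72 to 2.83 for Psmb8 and 1.58 to 2.33 for Psmb9. The lowest for Psmb9 was without passage 20 replicate 3. Psmb10, the third such subunit, was at 14.0 ± 0.601 and 13.6 ± 1.12 CPM and did not pass. Of the proteasome activator genes, Psme1 rose 1.17-fold and Psme2 fell by 0.26 on the log2 scale. Over the 5 genes, 3 were higher, 1 lower and 1 did not pass. Only 2 were higher with library sizes alone, without any 1 of the passage 3 libraries or without passage 20 replicate 3. Psmb8 and Psmb9 kept their calls in those fits, so Psme1 lost its call. Of the 4 constitutive counterparts, Psmb5 and Psme3 were lower (log2 -0.42 and -0.87), Psmb7 was higher by 0.13 and lost its call when any library was left out, and Psmb6 did not pass. Psmb5, the counterpart of Psmb8, was at 27.2 ± 3.13 and 20.3 ± 3.53 CPM. Between 1 and 3 of the 4 were called lower when a library was left out.

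Of 15 genes for transcription factors of class I promoters, 14 were tested, and 7 were higher, 3 lower and 4 did not pass (median log2 fold change 0.25), beside 37% and 37.3% of all genes. Without passage 20 replicate 3, 6 were lower, and with library sizes alone 4 were higher and 6 lower. Nlrc5, the class I coactivator, had only 9, 4 and 6 counts at passage 3 and 7, 6 and 4 at passage 20 and was not tested. Irf1, an interferon regulatory factor, rose from 31.7 ± 0.781 to 77.4 ± 4.98 CPM (log2 1.29, SE 0.07, adjusted p = 3.13e-08). The NF-kB subunit genes Nfkb2 and Relb rose 2.08-fold and 1.81-fold, and Rela did not pass. Rfx5, a subunit of the RFX factor, fell by 1.04 on the log2 scale (adjusted p = 1.39e-06), as did Nfyc of NF-Y (0.99) and Creb1 (0.70).

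Of 10 interferon receptor and signalling genes, 4 were higher, 1 lower and 5 did not pass (median 0.14), beside 37% higher and 37.3% lower over all genes tested. Without passage 20 replicate 3, 2 were lower, and with library sizes alone 6 were lower. Ifngr2, a chain of the interferon-gamma receptor, rose 2.04-fold, Jak1, its kinase, 1.58-fold, and Ifnar2, a chain of the type I interferon receptor, 1.55-fold. Of 16 interferon-induced genes, 15 were tested, with 6 higher, 3 lower and 6 that did not pass (median 0.51). In this fit the share higher is near the 37% of all genes. Leaving out 1 library gave 6 to 9 higher, with 9 without passage 20 replicate 1, and 2 to 4 lower. Bst2 (tetherin) rose 2.51-fold, the chemokine gene Cxcl10 3.24-fold and Rsad2 (viperin) 13.6-fold from 0.195 ± 0.0982 CPM, while the guanylate-binding and GTPase genes Irgm1, Gbp3 and Gbp2 fell by 1.2, 0.53 and 0.30 on the log2 scale.

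Of 20 other class I-like genes, 12 were tested, with 7 higher, 2 lower and 3 that did not pass (median 0.92), and 4 had 0 counts. H2-K2, a pseudogene beside H2-K1, rose from 0.352 ± 0.0796 to 13 ± 3.5 CPM, and H2-Q2 had 1 count at passage 3 and 133 at passage 20 (ratio 213, counting interval 37.6 to 8482). Counts of H2-K2 were 1.17 to 1.99 per 100 counts of H2-K1 at passage 3 and 3.98 to 5.84 at passage 20. Procr, the protein C receptor gene, rose 3.90-fold. Not every class I-like gene was higher, since Cd1d1, which presents lipids, fell by 1.08 and H2-T24 by 0.60 on the log2 scale, and 1 of these was called without passage 3 replicate 1.

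Of 9 MHC class II genes, which are normally limited to professional antigen-presenting cells, 6 were tested, with 4 higher, 1 lower and 1 that did not pass. H2-Ab1, a class II beta chain, was at 6.59, 8.07 and 9.60 CPM at passage 3 and 102, 82.6 and 79.8 CPM at passage 20 (log2 3.43, SE 0.14, adjusted p = 2.02e-08), 10.8-fold. Its alpha chain partner H2-Aa was at 0.252 ± 0.128 and 0.799 ± 0.450 CPM and was not tested, and Ciita, the class II master regulator, was lower (log2 -1.33, adjusted p = 0.0122), a call lost without passage 3 replicate 2, which left 0 lower. Cd74, the invariant chain, rose 3.19-fold, and H2-Eb1, another beta chain, 8.18-fold from 0.201 ± 0.109 CPM. Of 11 immune cell markers, 5 were tested and 4, among them the pan-leukocyte gene Ptprc, had 0 counts in all 6 libraries, and the list summed to 12.5 to 15.1 CPM at passage 3 and 13.1 to 14.1 CPM at passage 20. Of the 5 tested, 2 were higher, 1 was lower and 2 did not pass, so the similar sums cover changes in both directions. Mrc1, a macrophage gene, fell by 2.54 on the log2 scale, while Cd14 rose 3.27-fold and Csf1r 1.52-fold.

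Of 6 genes for ligands of natural killer and T cell receptors, 5 were higher, none lower and 1 did not pass (median 1.67). Pvr, a ligand of DNAM-1 and TIGIT, rose from 25.9 ± 1.82 to 203 ± 2.76 CPM (log2 2.97, SE 0.06, adjusted p = 1.15e-10), and its relative Nectin2 from 74.6 ± 1.03 to 225 ± 6.80 CPM. Raet1e, a ligand of the activating receptor NKG2D, rose 3.37-fold, and Ulbp1, another, was at 57.2 ± 2.22 and 53.7 ± 2.76 CPM and did not pass. Without passage 20 replicate 3, and with library sizes alone, 1 was lower.

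**Figure D4:**
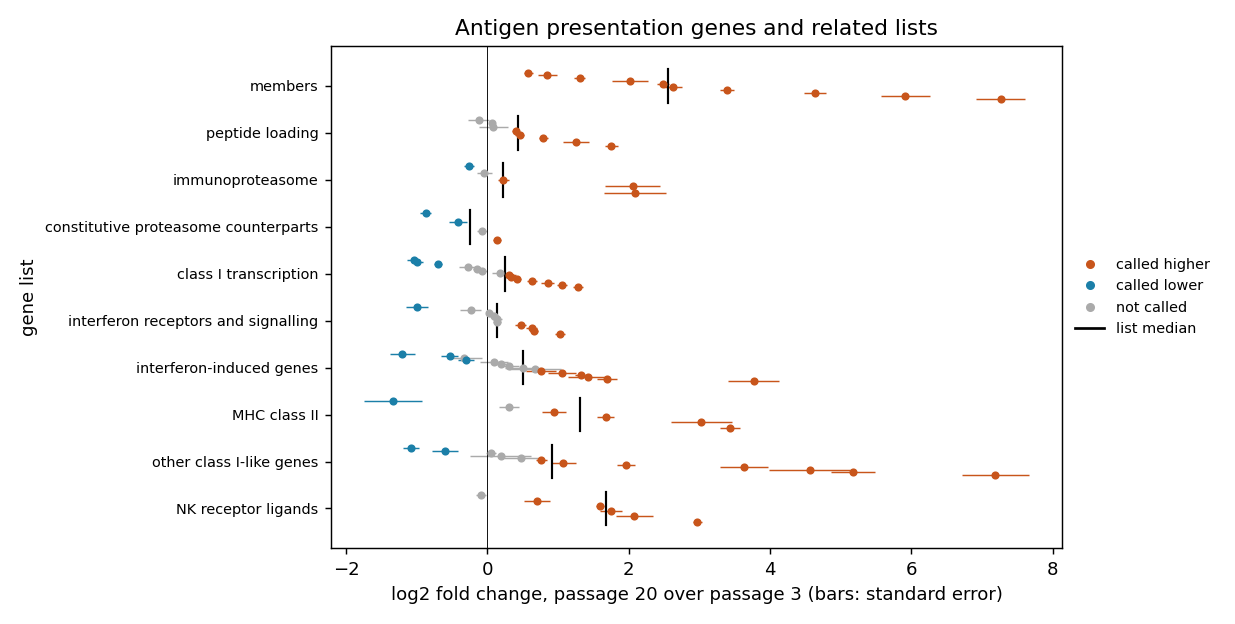
Log2 fold change (passage 20 over passage 3) with standard error for the members and the tested genes of each list, coloured by call, with black bars at list medians. The member median is 2.56, but members were chosen on this contrast, so nothing is read from its place above the lists. List medians are 1.67 for the receptor ligands, 1.31 for class II, 0.92 for other class I-like genes and 0.51 for interferon-induced genes. They are 0.43 for peptide loading, 0.25 for transcription factors, 0.22 for the immunoproteasome, 0.14 for interferon signalling and -0.24 for the constitutive counterparts.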

How the data were processed

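RNA sequencing of 6 libraries, 3 at passage 3 and 3 at passage 20, was analysed from the whole-number counts per gene that the authors deposited. The authors also deposited values on a log2 scale by a transformation that the sources used here do not name, and these served only as an alternative. Tools listed in the submitters' processing notes, without roles, are HTSeq, DESeq2, SAMtools and HISAT2 2.0.5, and the build is GRCm38. The sources used here give no annotation release, strand setting or read length. Per the labels, total RNA entered a standard Illumina protocol.

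Gene names, positions and merged exon lengths came from a GENCODE annotation of GRCm38, which matched 53706 of 53801 identifiers. Low-count genes were removed with filterByExpr and counts were compared in R 4.3.3 by the robust quasi-likelihood method of edgeR 4.0.16, with a Benjamini-Hochberg threshold of 0.05. Each SE was derived as the absolute log2 fold change over the square root of the quasi-likelihood F statistic, and was not estimated separately. TMM factors were 1.12 to 1.13 early and 0.873 to 0.917 late, and edgeR estimated a common biological variation of 7.05%. Named list genes were up to 3 called per direction with the smallest adjusted p, plus 9 chosen regulators and pathway genes, and a few further genes were named after their values were seen. A gene that the rule names is not reported here. Members and gene lists were chosen with earlier results of these data known. DESeq2 1.42.0, limma 3.58.1 on the deposited log2 values (chosen after seeing the data), RLE factors, library sizes only, no filter, a threshold of 0.01, a replicate block and each library left out were the alternatives.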

Additional observations from a re-analysis of the deposited data

How the results depend on the processing

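Over 12 alternative fits the members' log2 fold changes, given as a description, were 3.07 to 3.47 for H2-K1, 2.15 to 2.54 for H2-D1, 3.53 to 8.10 for H2-Q6, 3.18 to 6.19 for H2-Q10, 0.25 to 0.60 for H2-T22 and 0.97 to 1.38 for B2m. The lowest values of H2-Q6 and H2-Q10 came from the deposited log2 values. With library sizes only, genes called higher numbered 3528. In the lists that setting gave 3 higher and 2 lower for peptide loading, and 2 higher and 2 lower for the immunoproteasome. It gave 0 higher and 4 lower for the constitutive counterparts, and 4 higher and 6 lower for class I transcription. Interferon signalling had 6 lower and the receptor ligands 1 lower, and Tapbp had 0.13. DESeq2 called 0 constitutive counterparts higher. Whether the replicate numbers pair the libraries could not be told. Correlations of deviations were 0.0143, -0.0273 and 0.0454 for same-numbered libraries and ran from -0.044 to 0.0383 for the others. The replicate block called 5521 genes higher and 0 constitutive counterparts higher, with all other list counts within 1.5 times. Leaving out 1 library at a time gave 0 higher and 1 to 3 lower for the constitutive counterparts. For class I transcription it gave 3 to 6 lower (6 without passage 20 replicate 3), and for interferon signalling 1 to 2 lower. Class II had 0 to 1 lower, other class I-like genes 1 to 2 lower and the receptor ligands 0 to 1 lower. Interferon-induced genes had 6 to 9 higher and 2 to 4 lower, and the immunoproteasome 2 to 3 higher. Without length scaling the classical share was 35.3% and 60.5%, and B2m over heavy chains 1.33 and 0.613. The cause of these shifts was not tested. Depth limits H2-Q6, H2-Q10, H2-M3, Psmb8 and Psmb9, which rest on few counts at passage 3.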
